A study of Mus musculus with 24 samples.

Results

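Fibroblasts of the skin are a family of cell types, and 10 genes that are used to tell them apart were followed here through 3 body sites and through wounding. They are Pdgfra, Twist2, Prdm1, Lrig1, Dpp4, Dlk1, Ly6a, Pi16, Cd34 and Abca8a, taken by their symbols from the 18368 genes of an RNA-seq table of whole mouse skin, and all 10 were found in it. On GRCm38 the gene of Abca8a, which changed most, spans chr11:110025634-110097580 on the minus strand, and that of Pi16, which varied most between sites, chr17:29318796-29328903 on the plus strand. The 24 libraries came from 12 mice of the CD1 stock, an outbred stock with no engineered allele named, that were 7 weeks old and in the resting phase of the hair cycle when they were shaved and wounded. Each mouse was wounded at a single site, with 1 full-thickness punch wound of 2 mm on the cheek or 2 such wounds on the abdomen or back. On day 3 the wound and the unwounded skin next to it were taken with a 2 mm punch, so the 6 groups are unwounded skin and wound of abdomen, back and cheek, with 4 mice in each. The question put to these groups was whether skin of different embryonic origin differs at rest and in its answer to a wound.

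In the dermis, progenitors that carry the receptor Pdgfra give rise to a papillary lineage, which lies under the epidermis and helps to build hair follicles, and to a reticular and hypodermal lineage, which makes the deep collagen network and the fat layer. Lrig1, Dpp4 (CD26) and Prdm1 (Blimp1) are used as papillary markers, whereas Dlk1 and Ly6a (Sca-1) are used for the deep lineage, and the transcription factor gene Twist2 is active through much of the dermis. Pi16 and Cd34, together with Dpp4, also mark fibroblasts around vessels and in fascia that are regarded as a reserve population. None of the 10 is exclusive to fibroblasts: Cd34 and Ly6a are also made by endothelium, Lrig1 and Cd34 by hair follicle stem cells, Prdm1 by keratinocytes and sebaceous gland cells, and Dpp4 by T cells.

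Expression was deposited by the authors as FPKM (fragments scaled by transcript length and by the mapped total of the library), which allows genes to be compared per length. The files used here hold no counts, so that the depth of the libraries is unknown and intervals for counting error are not given. The FPKM values of a library summed to between 490830 and 608888, and 15781 to 16577 genes were above 0. Full-thickness punches differed in the muscle they held, since the summed level of 7 skeletal muscle genes ran from 479.9 to 14504 FPKM in unwounded abdomen, from 13699 to 21486 FPKM in unwounded back and from 11168 to 22675 FPKM in unwounded cheek. Bulk RNA of this kind cannot tell fewer cells of a type from less RNA of a gene per cell.

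The members spanned 3 orders of magnitude. Averaged over the 24 libraries, Ly6a stood at 515 FPKM, Cd34 at 199.9, Pi16 at 73.0, Twist2 at 32.5, Lrig1 at 21.0, Pdgfra at 21.0, Dpp4 at 12.3, Abca8a at 6.85, Prdm1 at 6.80 and Dlk1 at 0.35 FPKM. Ly6a was above Cd34, and Cd34 above Pi16, in all 24 libraries, 12 of 12 in each state. Ly6a, the gene of the surface protein Sca-1, lay at the 99.1 percentile of the genes in the table by mean level, whereas Dlk1, a gene of a Notch-related membrane protein that is prominent in fetal and newborn dermis, lay at the 21.8 percentile and never exceeded 1.07 FPKM. Neighbours lower in the order changed places with wounding. Lrig1 was above Pdgfra in 10 of 12 unwounded libraries but in 2 of 12 wounds, and Abca8a was above Prdm1 in 11 of 12 unwounded libraries but in 0 of 12 wounds. Pi16 was above Twist2 in 12 of 12 unwounded libraries and in 8 of 12 wounds.

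**Figure D1:**
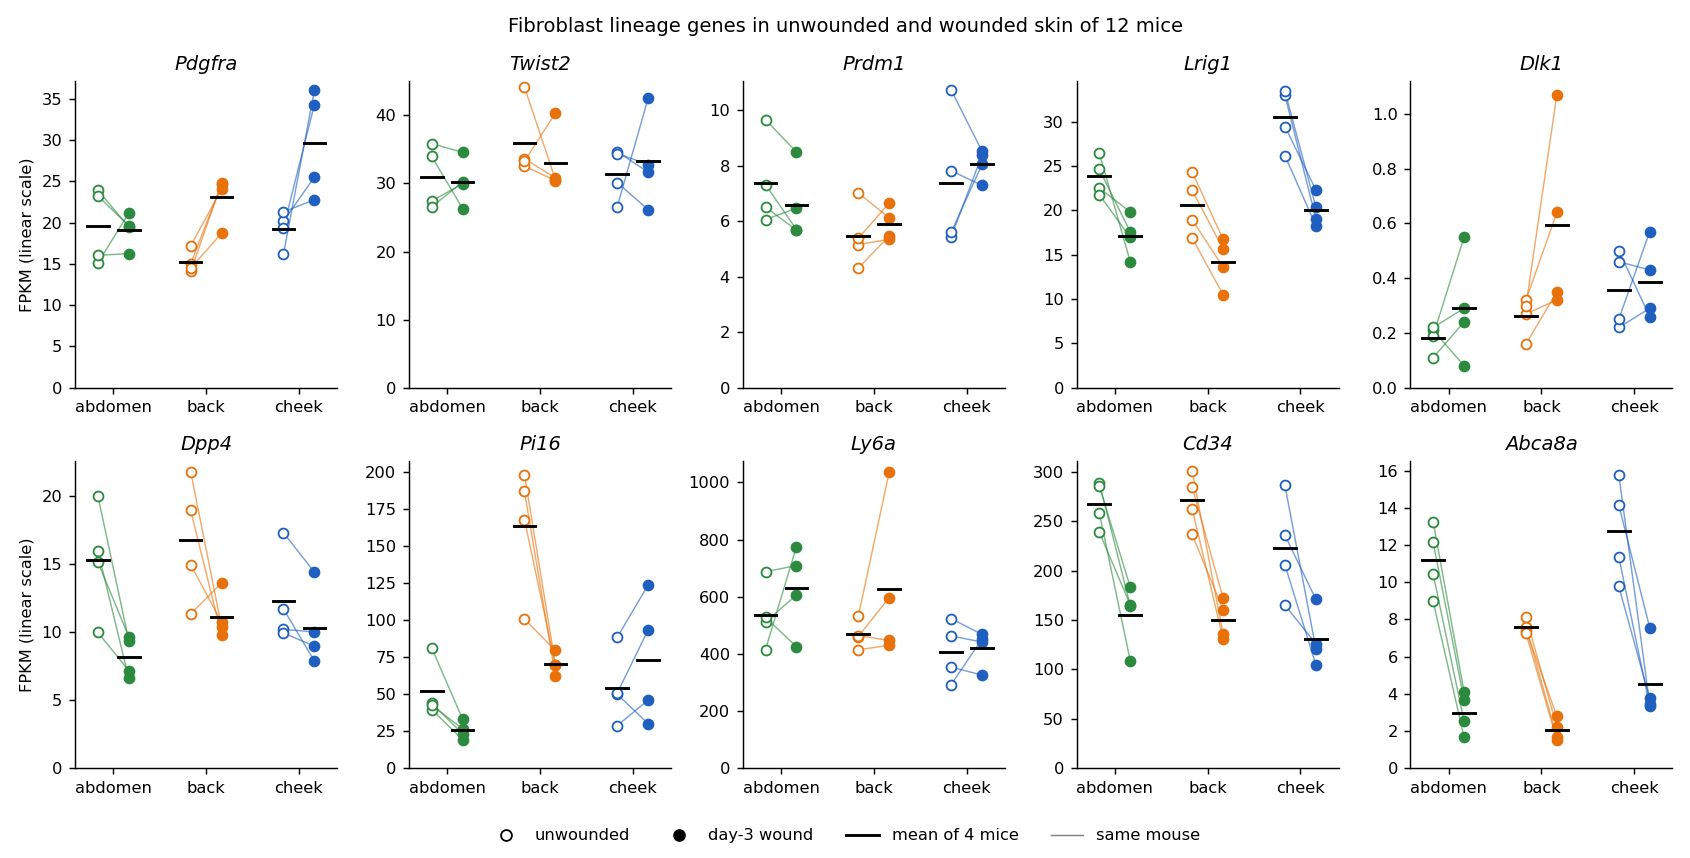
Level of each member in FPKM (vertical axes, linear and starting at 0) by site, with open circles for unwounded skin, filled circles for day-3 wounds, lines joining the libraries of a mouse and bars at the mean of 4 mice. Cd34, Lrig1 and Abca8a are lower in the wound in all 12 mice, while Pi16 is lower in the abdomen and back wounds and higher in 3 of 4 cheek wounds.

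To ask how the lineage genes answered the wound, each wound was compared with the unwounded skin of its own mouse. Averaged over the sites, 4 of 10 members fell (Abca8a, Cd34, Dpp4 and Lrig1) and 0 rose at a limma adjusted p under 0.001, whereas 33.4% of the 14423 tested genes were called, 14.4% of them lower and 19.1% higher. The median change of the members was -0.28 on the log2(FPKM + 0.5) scale and that of all tested genes 0.02. Within single sites, 1 member was called in abdomen (Abca8a, with 4.96% of genes called), 2 in back (Abca8a and Cd34, 14.4% called) and 2 in cheek (Abca8a and Lrig1, 8.69% called). Each of these calls was lower in the wound, as were 1.04%, 4.37% and 2.19% of tested genes. At a threshold of 0.05, 5 members passed in abdomen, 6 in back and 4 in cheek, beside 32.9%, 45.9% and 36.6% of all genes.

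Pdgfra, the receptor that defines dermal fibroblasts, did not fall with these genes. In back its unwounded levels of 15.0, 14.1, 17.2 and 14.5 FPKM in mice 1 to 4 stood against 24.6, 24.8, 24.0 and 18.7 FPKM in the wounds. In cheek they were 20.2, 21.3, 19.4 and 16.2 FPKM against 25.5, 22.8, 34.3 and 36.0 FPKM in the wounds. At both sites the wound libraries lay wholly above the unwounded ones, beside 25% and 16.7% of all tested genes for which that was so. In abdomen the unwounded values of 15.11, 23.91, 16.02 and 23.21 FPKM overlapped with the 21.1, 19.5, 16.3 and 19.6 FPKM of the wounds. The estimated changes were 0.58 (limma adjusted p 0.00999) in back, 0.59 (0.0118) in cheek and -0.01 (0.972) in abdomen on the log2 scale, none of which passed 0.001. Over the 12 mice the mean change was 0.39, higher in 10 of 12 (limma adjusted p 0.00256; exact permutation of signs over the 12 mice, two-sided p 0.0122). It was not called at 0.001 in the main fit. Of 9 other settings 2 brought it under 0.001, with a limma adjusted p of 0.000914 without a mouse term and 0.00036 with the mouse as a random effect. Across the 9 settings the adjusted p ran up to 0.0174.

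Twist2, a basic helix-loop-helix factor of the dermal mesenchyme, and Prdm1, a transcriptional repressor, did not move in one direction with the wound. Twist2 averaged 32.8 ± 4.86 FPKM in unwounded skin and 32.2 ± 4.94 FPKM in wounds (SD, n = 12), and the interval of its change ran from -0.21 to 0.16 on the log2 scale (limma adjusted p 0.803). Prdm1 averaged 6.75 ± 1.90 FPKM and 6.85 ± 1.25 FPKM (SD, n = 12), higher in 6 mice and lower in 6, with an interval of -0.13 to 0.22 (limma adjusted p 0.664). A small change of either gene is therefore not shown to be absent. The reads of Twist2 carry an uncertainty, because an annotated overlapping gene, Gm29100, shares 1468 bases of its transcript at 100% identity, and the counting is not stated to use strand.

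Among the papillary markers, Lrig1, an inhibitor of EGF receptor signalling, fell in all 12 mice. Unwounded abdomen held 26.5, 22.5, 21.8 and 24.6 FPKM in mice 1 to 4 and the wounds 14.2, 19.8, 17.0 and 17.6 FPKM. Back held 24.3, 19.0, 16.9 and 22.3 FPKM against 16.8, 13.6, 10.5 and 15.7 FPKM, and cheek 29.5, 26.2, 33.0 and 33.4 FPKM against 22.3, 18.3, 19.1 and 20.4 FPKM. The wound libraries lay wholly below the unwounded ones at each site, as was so for 11%, 15.4% and 15% of tested genes in abdomen, back and cheek. The mean change over the sites was -0.53 (SE 0.06) on the log2 scale (limma adjusted p 6.3e-06; exact permutation p 0.000488, the smallest that 12 mice allow). The changes of -0.47 in abdomen (adjusted p 0.00426), -0.54 in back (0.00103) and -0.59 in cheek (0.00074) in limma lay close together, and the cheek value passed 0.001 in this fit, while the back value passed under 6 of 10 other settings. The cheek call was lost when any of 10 of the 12 mice was left out (adjusted p up to 0.00619; all but abdomen mice 1 and 2).

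Dpp4, a membrane protease gene, was lower in the wounds of 11 of 12 mice. Its levels went from 9.96, 20, 15.96 and 15.14 FPKM in unwounded abdomen to 7.15, 9.36, 6.59 and 9.64 FPKM in the wounds, 2 ranges that did not overlap. In abdomen 11% of tested genes were lower in the wounds without overlap. In back they went from 11.3, 14.9, 18.9 and 21.8 FPKM to 13.6, 10.7, 9.75 and 10.4 FPKM, and in cheek from 17.3, 11.7, 10.2 and 9.91 FPKM to 14.4, 7.85, 10 and 8.95 FPKM. Back mouse 1 was the mouse in which Dpp4 was higher in the wound. The mean change was -0.54 (SE 0.11; limma adjusted p 0.000767; exact permutation p 0.00244 over 12 mice), and the estimates by site were -0.84 (abdomen), -0.54 (back) and -0.24 (cheek). Its averaged call was lost when any of 10 of the 12 mice was left out, with an adjusted p of up to 0.00235, and was kept without abdomen mouse 1 or back mouse 1.

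Of the genes used for the deep lineage, Dlk1 was barely detected. It lay between 0.11 and 0.50 FPKM in unwounded skin and between 0.08 and 1.07 FPKM in wounds, and it passed the filter on low values through wound libraries, so that it was not tested between the unwounded sites. It averaged 0.268 ± 0.115 FPKM in unwounded skin and 0.424 ± 0.258 FPKM in wounds (SD, n = 12). Because the filter let it in through the wounds, no test of its wound effect is read as a result. Dlk1 stays in the member counts, in the member median and in the figures. Under the main settings it was called neither for a wound effect nor relative to Pdgfra. Values of its wound effect under other settings are given below as descriptions.

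Ly6a went in different directions in different mice. It stood at 512, 527, 687 and 414 FPKM in unwounded abdomen and at 605, 425, 709 and 775 FPKM in the wounds, and at 460.5, 464, 532 and 414 FPKM in unwounded back and 597, 447, 1037 and 429.5 FPKM in the wounds. In cheek the values were 523, 462, 353 and 292 FPKM against 468, 441, 325 and 452 FPKM. It was thus higher in the wounds of 7 of 12 mice and lower in 5, with the highest level of any member, 1037 FPKM, in the wound of back mouse 3. The mean change of 0.21 did not pass the test (limma adjusted p 0.135; exact permutation p 0.128 over 12 mice).

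The spread of Ly6a went along with interferon-response genes. Among all tested genes, its profile over the 24 libraries was by Pearson's r most like those of Usp18 (r = 0.837), which encodes an ISG15 protease, and B2m (r = 0.83), the light chain of class I MHC. After removal of the 6 group means, the closest genes were Ifitm3 (r = 0.937) and Ifi35 (r = 0.926), both interferon-induced. The summed level of 7 interferon-response genes (Isg15, Ifit1, Ifit3, Irf7, Rsad2, Oas1a and Mx1) ran from 17.9 to 141.4 FPKM in unwounded skin and from 32.6 to 994 FPKM in wounds. Its log2 value correlated with that of Ly6a with r = 0.59 over the 24 libraries and with r = 0.738 after removal of the group means. For the change between unwounded skin and wound of a mouse, r was 0.586 over 12 mice. Back mouse 3, with the highest Ly6a, also had the highest interferon sum, and back mouse 4, with 429.5 FPKM of Ly6a in the wound, had a sum of 32.6 FPKM there. In abdomen mouse 2, back mouse 2 and cheek mice 1 to 3 the sum was higher in the wound while Ly6a was lower. The coefficients over 24 points describe libraries that share mice and scaling, with both libraries of a mouse among those points.

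**Figure D2:**
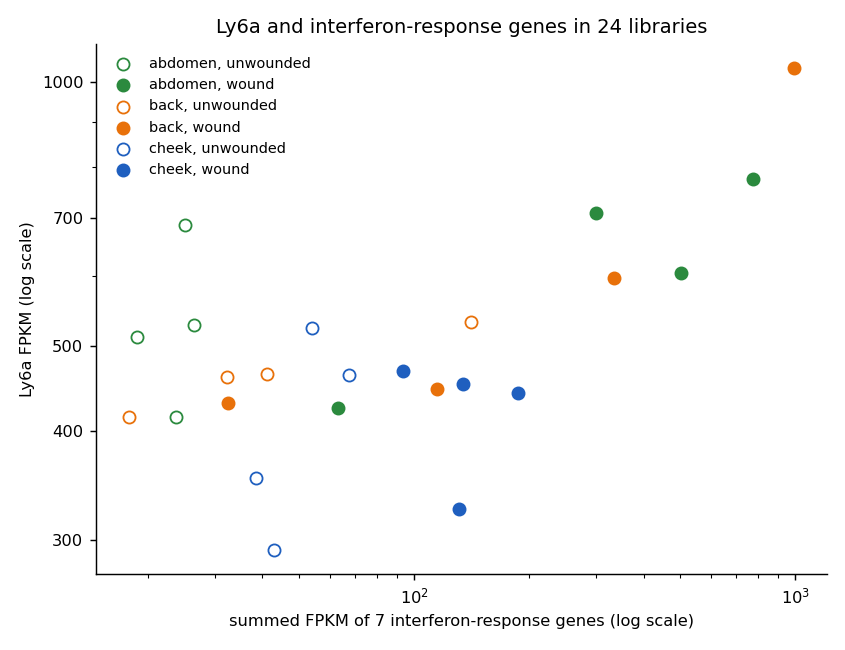
Ly6a in FPKM (vertical, log scale) against the summed FPKM of 7 interferon-response genes (horizontal, log scale) in 24 libraries, coloured by site, with open circles for unwounded skin and filled circles for wounds. The wound of back mouse 3 lies at 1037 FPKM of Ly6a and 994 FPKM of the interferon genes, at the top right of the plot, and the 4 cheek wounds lie between 325 and 468 FPKM of Ly6a.

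Pi16, a gene of a secreted peptidase inhibitor, went down in abdomen and back and not in cheek. In abdomen it stood at 43.8, 39.5, 81.2 and 42.4 FPKM in unwounded skin and at 23.1, 19.1, 32.9 and 26.4 FPKM in the wounds. In back it stood at 100.5, 167.6, 198 and 186.6 FPKM and at 79.3, 69.2, 69.7 and 62.4 FPKM in the wounds. All 8 of these mice were lower in the wound, and the ranges did not overlap at either site. Of all tested genes, 25% in abdomen and 22.6% in back were lower in all 4 mice, and 11% and 15.4% were lower without overlap. In cheek the unwounded 88.2, 49.7, 50.7 and 28.6 FPKM faced 123.7, 29.9, 93.3 and 45.9 FPKM, higher in 3 of 4 mice. The changes were -0.97 in abdomen (limma adjusted p 0.0114), -1.17 in back (0.00265) and 0.33 in cheek (0.324), so that none passed 0.001. The effect in cheek exceeded that in back by 1.498 (95% interval 0.74 to 2.26), but in the F test for a difference between sites the adjusted p over all genes was 0.228 (unadjusted 0.00216), and the difference is not shown. Averaged over sites the change was -0.61, lower in 9 of 12 mice (limma adjusted p 0.00292; exact permutation p 0.0361). The exact permutation p exceeded 0.05 without any of 8 mice (up to 0.0703).

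Cd34, a gene of a sialomucin of progenitor cells, fell in all 12 mice. Unwounded abdomen held 258.5, 289, 239 and 286 FPKM and the wounds 109, 165, 166 and 183 FPKM. Back held 237, 263, 301 and 285 FPKM against 160.4, 131, 136 and 172 FPKM, and cheek 236, 287, 206 and 165 FPKM against 171, 121, 104 and 126 FPKM. The ranges were separate in abdomen and back and overlapped in cheek, where mouse 1 kept 171 FPKM in its wound. Separate lower ranges were found for 11% of tested genes in abdomen and 15.4% in back. The mean change was -0.81 (SE 0.09; limma adjusted p 5.96e-06; exact permutation p 0.000488 over 12 mice). The 3 sites gave -0.81, -0.86 and -0.77 on the log2 scale. The call in back was lost without any of 7 mice (abdomen 2 and 4, back 1 to 4 and cheek 3), with an adjusted p of up to 0.00617.

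Abca8a, a gene of an ABC transporter for lipids, fell furthest among the 10. It stood at 8.96, 12.1, 10.4 and 13.3 FPKM in unwounded abdomen and at 1.66, 3.67, 2.51 and 4.09 FPKM in the wounds. Back went from 7.42, 7.60, 7.25 and 8.15 FPKM to 2.79, 1.66, 1.5 and 2.2 FPKM, and cheek from 14.2, 15.8, 11.4 and 9.77 FPKM to 7.55, 3.43, 3.32 and 3.75 FPKM. No wound library reached the lowest unwounded library of its site, as was so for 11%, 15.4% and 15% of tested genes in abdomen, back and cheek. The ratio of wound to unwounded FPKM lay between 0.185 (abdomen mouse 1) and 0.534 (cheek mouse 1). The mean change was -1.65 (SE 0.10) on the log2 scale, with -1.79 for abdomen, -1.70 for back and -1.46 for cheek (limma adjusted p 3.03e-08 over the sites; exact permutation p 0.000488 over 12 mice). Members that were lower in all 12 mice were 3 of 10, Cd34, Lrig1 and Abca8a, beside 9.81% of all tested genes.

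**Figure D3:**
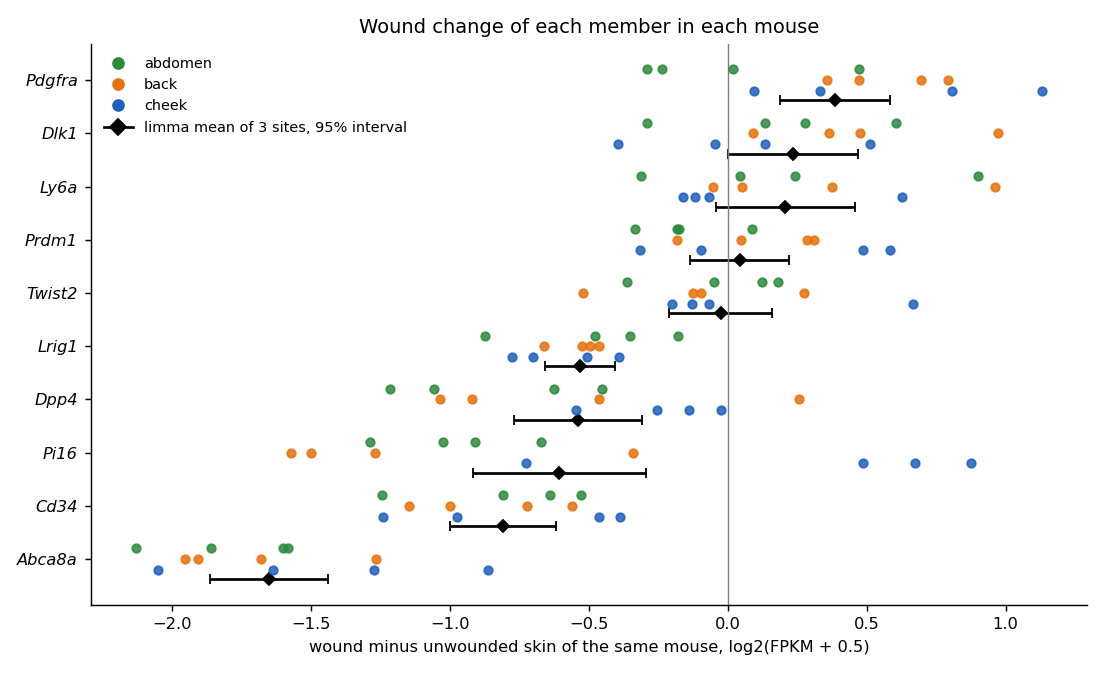
Wound minus unwounded skin of the same mouse on the log2(FPKM + 0.5) scale (horizontal) for each member (vertical), 12 mice coloured by site, with a diamond and bar for the limma mean of the 3 sites and its 95% interval. All 12 points of Cd34, Lrig1 and Abca8a lie left of 0, and Pi16 has 3 cheek mice to the right of 0 and all abdomen and back mice to the left.

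The stretches just upstream of the RefSeq starts of the 3 genes that fell in every mouse, and of Pdgfra, which did not, are shown to let their sequences be compared. They are on GRCm38, in the direction of transcription, and free of exons of the GENCODE annotation, while the RefSeq spans of Abca8a, Lrig1 and Pdgfra, which count predicted transcripts, reach farther upstream: Abca8a at chr11:110095979-110096187 on the minus strand, Cd34 at chr1:194938571-194938818 on the plus strand, Lrig1 at chr6:94700159-94700395 on the minus strand and Pdgfra at chr5:75152001-75152250 on the plus strand. The motif in capitals is CANNTG, the E-box bound by helix-loop-helix factors such as Twist2, which reads the same on both strands.
Abca8a: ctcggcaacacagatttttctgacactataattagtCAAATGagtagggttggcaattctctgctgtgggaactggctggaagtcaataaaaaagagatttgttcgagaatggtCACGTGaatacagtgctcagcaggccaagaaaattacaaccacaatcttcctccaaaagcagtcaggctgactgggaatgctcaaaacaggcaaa
Cd34: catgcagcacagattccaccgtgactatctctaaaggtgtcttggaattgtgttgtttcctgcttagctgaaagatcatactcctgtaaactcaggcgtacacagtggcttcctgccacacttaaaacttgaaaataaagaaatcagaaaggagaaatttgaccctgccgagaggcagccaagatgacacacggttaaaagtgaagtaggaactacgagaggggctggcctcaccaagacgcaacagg
Lrig1: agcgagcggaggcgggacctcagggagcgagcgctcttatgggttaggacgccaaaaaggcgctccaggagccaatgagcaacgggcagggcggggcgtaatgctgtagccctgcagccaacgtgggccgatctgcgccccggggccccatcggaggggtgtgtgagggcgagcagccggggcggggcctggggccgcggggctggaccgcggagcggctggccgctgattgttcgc
Pdgfra: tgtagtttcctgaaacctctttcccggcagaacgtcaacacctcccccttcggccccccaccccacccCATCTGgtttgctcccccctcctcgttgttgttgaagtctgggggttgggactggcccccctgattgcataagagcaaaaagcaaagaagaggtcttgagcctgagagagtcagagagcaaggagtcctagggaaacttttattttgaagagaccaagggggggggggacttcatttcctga
The stretch of Abca8a holds 2 E-boxes, that of Pdgfra 1, and those of Cd34 and Lrig1 hold 0. In the full windows of 250 bases before the start, Abca8a has 3. Of 32851 such windows, 66.2% hold at least 1 E-box. Among the members called lower in the averaged wound effect, the full window of Dpp4 also holds 1, and those of Cd34 and Lrig1 hold 0. The letters TATAAA, searched on both strands and found in 12.4% of windows, occur in the window of Dpp4 and of no other member, and GGGCGG (32.7% of windows) occurs in those of Lrig1 and Twist2. A window was found for 9 of the 10 members, Ly6a being the exception.

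Because Pdgfra stands for fibroblasts as a whole, the change of every other member was also taken relative to that of Pdgfra in the same mouse. Abca8a fell by 2.04, Cd34 by 1.198, Pi16 by 0.99, Dpp4 by 0.93 and Lrig1 by 0.92 more than Pdgfra on the log2 scale. Abca8a, Cd34 and Dpp4 did so in 12 of 12 mice (exact permutation of signs, two-sided p 0.000488 each, unadjusted). Lrig1 did so in 11 (exact permutation p 0.000977) and Pi16 in 10 (exact permutation p 0.00195). Such counts of mice were not taken for all genes, and Pdgfra itself was higher in the wounds of 10 of 12 mice. Smaller differences were found for Twist2 (-0.41, exact permutation p 0.0190) and Prdm1 (-0.34, exact permutation p 0.0435), whereas Ly6a (-0.18, exact permutation p 0.289) did not pass. The p of Prdm1 was above 0.05 without any of 8 mice and under quantile normalization (up to 0.0869). The same subtraction over all genes shows how much of this is Pdgfra itself: the median of all 14422 other genes was -0.37. Of them 66.2% differed from Pdgfra at a limma adjusted p under 0.05, 57.1% in the lower direction, beside 7 of 9 members. The noise of Pdgfra is shared by every gene in this fit, which treats genes as independent and their spread as almost exactly known. These shares and the count of members are therefore descriptions. The differences of Twist2 and Prdm1 lie near that median, and those of Abca8a, Cd34, Pi16, Dpp4 and Lrig1 lie beyond it.

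Between the sites at rest, Pi16 was the member that differed most. Its 4 unwounded back libraries, at 100.5 to 198 FPKM, lay wholly above the 39.5 to 81.2 FPKM of abdomen and the 28.6 to 88.2 FPKM of cheek, as 2.59% and 2.2% of tested genes did. Back exceeded abdomen by 1.67 on the log2 scale (limma adjusted p 0.0287), and cheek was below back by -1.64 (limma adjusted p 0.0481), each with an exact permutation p of 0.0286, the smallest that 4 against 4 libraries allow. Pi16 was the 1 of 9 tested members called between back and abdomen, beside 2.67% of all genes (0.53% higher in back). The skeletal muscle genes also differed in summed level between these punches, and their part in the result was not tested. The call against abdomen was lost without any of 5 mice (abdomen 1 and 2, back 2 to 4; adjusted p up to 0.0982), and that against cheek without any of 9 (up to 0.132).

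Cheek skin stood above back skin for Abca8a and Lrig1. Abca8a averaged 12.8 ± 2.71 FPKM in unwounded cheek and 7.61 ± 0.39 FPKM in back (SD, n = 4), a difference of 0.69 at a limma adjusted p of 0.04996. Lrig1 averaged 30.5 ± 3.40 FPKM and 20.6 ± 3.32 FPKM (SD, n = 4), a difference of 0.56 at a limma adjusted p of 0.0523. The libraries of the 2 sites did not overlap for either gene, beside 12.4% of all tested genes that were higher in cheek without overlap. Thus 2 of 9 members were called between cheek and back (Pi16 lower and Abca8a higher in cheek, beside 1.05% of genes, 0.494% lower and 0.559% higher), and the call of Abca8a held by a margin that 8 of 9 other settings and 9 of 12 left-out mice did not keep. The median of all genes was itself shifted by 0.14 between cheek and back and by -0.12 between back and abdomen, and relative to it the differences of Abca8a and Lrig1 were smaller. With median-ratio scaling, which brings these medians to 0.01 and 0.00, Pi16 was still called against both sites and Abca8a was not.

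Between cheek and abdomen, 0 of 9 members were called by limma in unwounded skin, and 2.57% of all genes were. Lrig1 had the lowest adjusted p of the tested members (difference 0.35, limma adjusted p 0.154). The intervals of the other members ran within -0.83 and 0.77, so that differences of nearly that size may be missed here. Pdgfra, Twist2, Prdm1, Dpp4, Ly6a and Cd34 were called between no pair of unwounded sites.

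In the wounds Pi16 was lowest in abdomen. Cheek wounds averaged 73.2 ± 43.1 FPKM and back wounds 70.1 ± 6.98 FPKM, against 25.4 ± 5.85 FPKM in abdomen wounds (SD, n = 4 each). Pi16 was higher in cheek than in abdomen wounds by 1.33 (limma adjusted p 0.0453), and the same comparison for Pdgfra, with 29.6 ± 6.502 FPKM in cheek and 19.1 ± 2.06 FPKM in abdomen, gave 0.60 (limma adjusted p 0.0295). These 2 of 10 members were called, both higher in cheek, beside 10.8% of all genes (7.52% higher). The Pdgfra libraries of the 2 sites did not overlap (13.6% of genes were higher in cheek without overlap), while those of Pi16 did. With median-ratio scaling neither was called, with Pdgfra at an adjusted p of 0.0518 and Pi16 at 0.0538. The Pi16 call was lost with any of 11 mice left out (all but cheek mouse 2, adjusted p up to 0.106), and that of Pdgfra without abdomen mouse 3 (0.0837), cheek mouse 3 (0.0728) or cheek mouse 4 (0.0665).

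Against abdomen, back wounds had 0 of 10 members called by limma (1.27% of genes called), although Pi16 was 1.47 higher without overlap (limma adjusted p 0.0767) and Dpp4 0.42 higher without overlap (limma adjusted p 0.262). Of all tested genes, 3.84% were higher in back without overlap. Cheek against back wounds also had 0 of 10 (2.5% called). Abca8a was 0.94 higher (limma adjusted p 0.0823), Lrig1 0.50 higher (0.0662) and Prdm1 0.42 higher (0.0703) in cheek without overlap (17.2% of genes). Pdgfra was 0.34 higher (0.173) with overlap. Whether the wound effect itself differed between the sites was tested by a moderated F test, in which 0 of 10 members and 0.0208% of all genes were called by limma at an adjusted p under 0.05. In this F test the unadjusted p was 0.00216 for Pi16 and 0.0297 for Pdgfra. The share of all genes with such values was not counted, so nothing is read from them. In the comparisons of cheek wounds with the other sites, the number of wounds per mouse, 1 on the cheek and 2 elsewhere, cannot be told apart from the site.

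**Figure D4:**
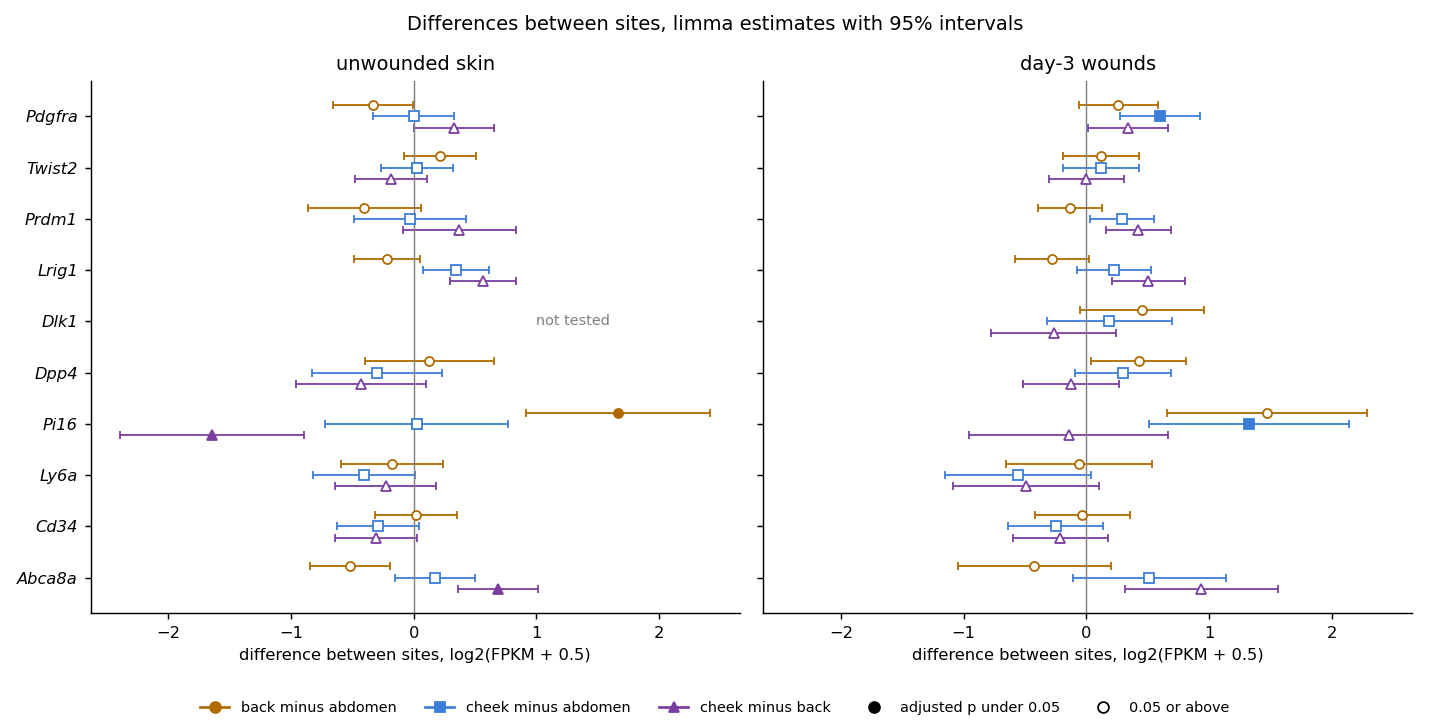
Differences between sites on the log2(FPKM + 0.5) scale (horizontal) for each member (vertical), in unwounded skin (left) and day-3 wounds (right), with limma estimates, 95% intervals and filled symbols at an adjusted p under 0.05. In unwounded skin Pi16 is higher in back than at both other sites and Abca8a higher in cheek than in back, and in wounds the filled symbols are those of Pi16 and Pdgfra between cheek and abdomen.

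Some members varied together, and others in opposite directions, between mice of the same group. After removal of the 6 group means, Cd34 and Abca8a correlated with r = 0.856, Dpp4 and Abca8a with r = 0.663, Dpp4 and Pi16 with r = 0.581 and Dpp4 and Cd34 with r = 0.525 over 24 libraries, while Pdgfra correlated with Cd34 with r = 0.021. Opposite deviations were seen for Ly6a and Lrig1 (r = -0.558), Pi16 and Prdm1 (r = -0.558), Ly6a and Prdm1 (r = -0.516) and Pdgfra and Dlk1 (r = -0.452). These are descriptions of libraries that share mice and scaling. The genes most like Cd34 over the 24 libraries were Glt8d2 (r = 0.961) and Serpina3c (r = 0.958), and after removal of group means Ecm2 (r = 0.930), an extracellular matrix gene, and Sema3b (r = 0.906), a semaphorin. Those most like Abca8a were Syde2 (r = 0.970) and Pard3b (r = 0.957), then Enpep (r = 0.899), which encodes an aminopeptidase, and Add3 (r = 0.894). For Dpp4 they were Lrrn4cl (r = 0.891) and Pdgfd (r = 0.886), a ligand gene of the PDGF family, then Nid1 (r = 0.926), a basement membrane gene, and Nox4 (r = 0.896). For Pi16, Tmeff2 came first by both measures (r = 0.818 and 0.793). The remaining leaders were Abca1 (r = 0.889) and Cltc (r = 0.887) for Pdgfra, Tmtc4 (r = 0.918) and Tob1 (r = 0.915) for Lrig1, Adgrl2 (r = 0.886) and Btaf1 (r = 0.881) for Prdm1, Vdac2 (r = 0.678) and Chchd4 (r = 0.675) for Dlk1 and Map1lc3b (r = 0.663) and Gdf15 (r = 0.654) for Twist2.

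Other genes of the same lineages, listed with earlier results of these data known, are described by their counts, without a test of the lists. Of 15 adventitial and reticular genes, 8 fell and 0 rose (averaged over sites, limma adjusted p under 0.001; list median -0.59), among them Clec3b, a tetranectin gene, which went from 282 to 118.1 FPKM (-1.29), and Opcml (-1.24), and the 2 genes with the highest values, Mfap5 (0.36, adjusted p 0.0425) and Col14a1 (0.27, 0.0657), did not pass in limma. Of 4 related transporter genes that neighbour Abca8a in a cluster, 3 fell, Abca6 (-1.04), Abca5 (-1.03) and Abca8b (-0.85), and Abca9 did not pass (-0.17, limma adjusted p 0.104). The 12 papillary genes were split, with 3 higher, led by Pdpn, the podoplanin gene (1.42), and Col18a1 (1.04), and 3 lower, led by Apcdd1, a Wnt inhibitor (-0.76), with Lef1 at -0.70 not passing (limma adjusted p 0.026). General fibroblast genes were also split, 4 of 12 higher and 2 lower: Fbln2 (1.19) and Vim (0.83) rose, while the collagen genes Col1a1 (4374 to 2448 FPKM, -0.84) and Col1a2 (4782 to 2245 FPKM, -1.09) fell.

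Of 12 genes of wound-activated fibroblasts, 8 rose and 0 fell (list median 1.06), among them Tnc, the tenascin C gene, from 3.81 to 87.5 FPKM (4.35), and Timp1, from 15.1 to 166 FPKM (3.39), while Fap (-0.01) and Tagln (-0.07) did not pass. Within the unwounded libraries 11 of the 12 passed the filter on low values. The remaining gene passed it through wound libraries, so its change is not read as a result, although it stays in the list median and the figure. Of 10 dermal papilla genes, 2 rose, Crabp1 (2.11) and Sox18 (0.51), and 4 fell, with Enpep (-1.03) and Rspo3 (-0.90) lowest. Of 13 tested fibroblast transcription factor genes, Meox1 rose (0.55) and Osr2 (-0.95) and Tbx15 (-0.75) fell, and Prrx2 had a value of 0.50 (limma adjusted p 0.00478). Of 8 tested fat progenitor genes, 3 rose, led by Cd24a (1.04) and Icam1 (0.74), and 3 fell, with Fabp4 (-0.59) and Cd36 (-0.59) lowest. These are counts and not tests of the lists.

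**Figure D5:**
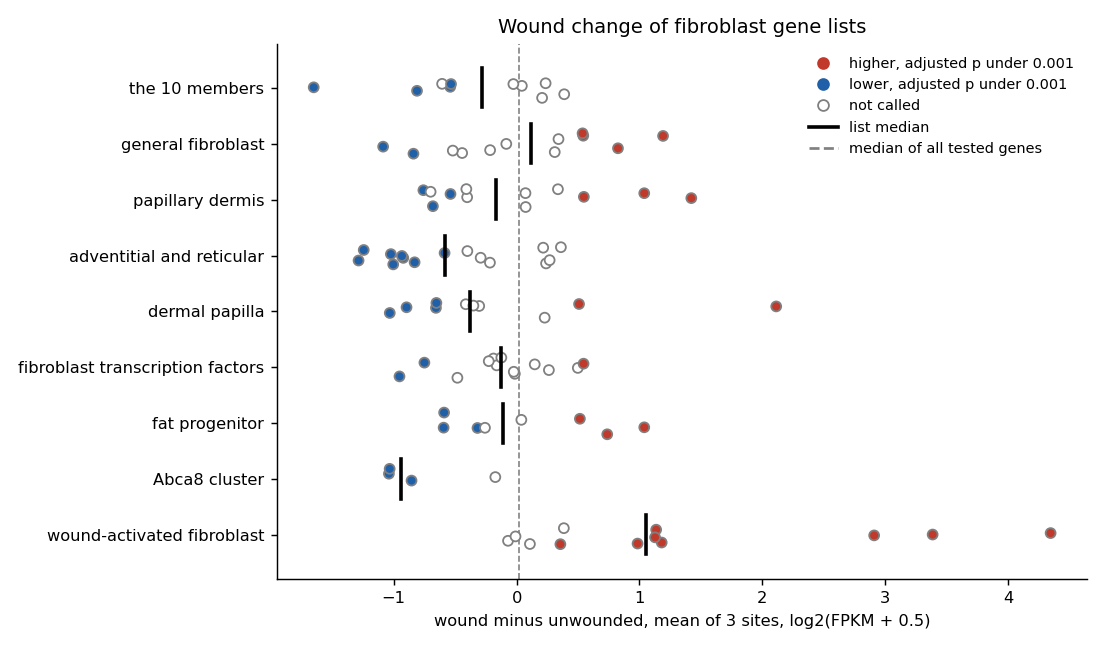
Wound change averaged over the 3 sites on the log2(FPKM + 0.5) scale (horizontal) for each tested gene of 9 lists (vertical), coloured where the limma adjusted p was under 0.001, with a bar at the list median and a dashed line at the median of all tested genes. The medians of the 10 members and of the adventitial and reticular list lie below 0, at -0.28 and -0.59, and that of the wound-activated list lies at 1.06. The members and the wound-activated list each hold a gene that passed the filter on low values through wound libraries.

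Markers of other cell types moved in the same wounds, and their part in the results of the members was not tested. All 7 neutrophil genes rose, from a summed level of 15.1 to 47.6 FPKM in unwounded libraries to 365 to 2412 FPKM in wounds, with S100a9 (6.74), S100a8 (6.31), Mmp9 (1.71) and Ly6g (0.66) at the ends of the list, and 6 of 7 macrophage genes rose, led by Fcgr1 (2.44) and Cd68 (1.67), with a summed level of 378 to 772 FPKM in unwounded skin and 723 to 1231 FPKM in wounds. All 7 adipocyte genes fell, from 125.5 to 469.8 FPKM to 111.5 to 266.7 FPKM, with Cidec (-1.45) and Pck1 (-1.29) lowest. The 8 endothelial genes share a cell type with Cd34 and Ly6a. They summed to 97.02 to 150.01 FPKM in unwounded skin and to 145.0 to 179.8 FPKM in wounds. Of them 6 rose, led by Tie1 (0.76) and Cdh5 (0.74), while Vwf (0.19, limma adjusted p 0.096) and Tek (-0.37, 0.0197) did not pass. Of 8 hair follicle epithelial genes, which share a cell type with Lrig1 and Cd34, 4 fell, with Krt75 (-1.22) and Krt15 (-0.88) lowest, and their sum went from 1322 to 2421 FPKM to 1047 to 1589 FPKM. Of 6 tested T cell genes, which share a cell type with Dpp4, 2 fell (Cd3g, -0.88, and Cd3e, -0.51) and 1 rose (Cd8a, 0.89), and the sum went from 19.0 to 55.1 FPKM to 18.6 to 38.3 FPKM. Mean levels in unwounded skin and wounds were 0.13 and 0.72 FPKM for Cd8a and 0.006 and 0.34 FPKM for Ly6g. For Myh3 of regenerating muscle they were 0.08 and 13.3 FPKM. These genes passed the filter on low values through wound libraries, so their counted rises are not read as results. Of the remaining lists, 5 of 7 interferon-response genes, 6 of 7 proliferation genes, 6 of 7 genes of regenerating muscle, 3 of 8 epidermal genes, 1 of 7 mast cell genes and 1 of 4 tested B and plasma cell genes rose and 0 fell, and none of 7 skeletal muscle genes passed (list median -1.44). No gene of these lists was at 0 in all 24 libraries.

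The counting of reads bears on several members besides Twist2. Genes on the opposite strand share stretches of full identity with Pi16 (225 bases, AC162182.1), Cd34 (151 bases, Gm16897) and Lrig1 (137 bases, Slc25a26), and since the counting is not stated to use strand, reads from these stretches cannot be assigned. The longest transcript of Ly6a is 84.8% identical to Ly6c1 over 854 bases and 82.3% identical to Ly6g over 938 bases, and Abca8a is 77.8% identical to Abca8b over 1650 bases and 80.9% identical to Abca9 over 1225 bases, so that a share of reads could have been assigned between such copies by the estimation of transcript abundance. Ly6g itself, a neutrophil gene, averaged 0.34 FPKM in wounds. That value comes from the same estimation, so it does not show how reads were shared with Ly6a, which was not tested.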

How the data were processed

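RNA was sequenced from whole, flash-frozen punches of unwounded skin and day-3 wounds of 12 mice, 24 libraries in 6 groups of 4. The values deposited by the authors are FPKM per gene and library, estimated with RSEM 1.2.12 after alignment with Bowtie2 2.2.5 to mm10 (HISAT2 is also named in the submitters' processing notes), given to 2 decimals and not scaled between libraries. Depth is therefore unknown, and low values are coarse. A second deposited table with the fold changes and adjusted p-values of the authors' comparisons was not used.

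Values were analysed as log2(FPKM + 0.5), so that a fold change is on that scale and is understated for low genes. A gene was tested where 4 or more libraries reached 0.5 FPKM, which left 14423 genes over all libraries, 13956 in unwounded skin and 14023 in wounds. limma 3.58.1 with trend and robustness (statmod 1.5.0, R 4.3.3) was fitted over all tested genes with Benjamini-Hochberg adjustment. Wound effects came from 1 model of 24 libraries with a term for each mouse (threshold 0.001), and sites were compared within 12 unwounded or 12 wound libraries (threshold 0.05). Both libraries of a mouse come from the same animal, and their deviations from the group means correlated with a mean r of 0.281 to 0.348 per site, against -0.116 to -0.096 for different mice. Exact tests enumerated 4096 sign changes over 12 mice or all splits of 4 against 4, two-sided. P-values of wound effects rest on how the difference within a mouse varied from mouse to mouse. Those between sites rest on the spread between the mice of a site. In limma both spreads were moderated toward a trend over all tested genes. The fit was tested on simulated data with normal noise, independent between genes. Of 200 genes changed by 1 on the log2 scale among 14423, 183 were recovered for the averaged wound effect (1 false call). Recovered were 120 for abdomen (1), 121 for back (0), 122 for cheek (1) and 158 for unwounded back against abdomen (10). In the data 33.4% of genes were called for the averaged effect. The averaged changes of Lrig1 (-0.53) and Dpp4 (-0.54) were smaller than the simulated one, so recovery at their size was not tested.

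The members and the gene lists were chosen with earlier results of these data known. Named genes are the members, the 2 highest and 2 lowest of each list by the averaged wound effect, and for each member the 2 genes most like it by each of the measures of likeness. Sequences are from RefSeq promoter windows (GRCm38), and similar transcripts were sought with BLAST 2.17.0. Alternatives changed the pseudocount, filter, scaling, model, mouse terms and threshold, and left out each mouse. A gene of the interferon-response list is not reported here and was left out of its sums.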

Additional observations from a re-analysis of the deposited data

Results flagged for a closer look

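In 5 of 60 groups of 4 libraries, 1 value of a member stood apart from the other 3 by Dixon's test, and chance flags about 1 in 20 groups. Pdgfra was at 18.7 FPKM in the wound of back mouse 4, with the nearest library at 24.0 FPKM. Pi16 was at 81.2 FPKM in unwounded abdomen of mouse 3, with the nearest at 43.8 FPKM. Twist2 was at 44.1 FPKM in unwounded back of mouse 1, with the nearest at 33.7 FPKM, and at 40.3 FPKM in the wound of back mouse 4, with the nearest at 30.8 FPKM. Abca8a was at 7.55 FPKM in the wound of cheek mouse 1, with the nearest at 3.75 FPKM. The same cheek mouse also had the highest Cd34 and Dpp4 among the cheek wounds, at 171 and 14.4 FPKM.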

How the results depend on the processing

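Of the tests of single members under other settings, 2526 kept their direction and side of the threshold, 109 were no longer past it, 26 newly passed it and 58 changed sign, 0 of them called in either fit. The averaged falls of Abca8a, Cd34 and Lrig1 were called under all settings and with each mouse left out, and that of Dpp4 was lost without a filter, without trend and robustness, without the replicate block and with most mice left out. The number of members called in abdomen, 1, was 2 with quantile normalization or with the replicate block as a random effect, and 5 at a threshold of 0.05. The 2 calls in back became 1 without a filter or without trend and robustness, 6 at 0.05, and 3 under 6 settings (a pseudocount of 0.1, a minimum of 1 FPKM, median-ratio scaling, quantile normalization, the random effect and the site alone), in each of which Lrig1 passed. The 2 in cheek became 1 without a filter, without trend and robustness or without the replicate block, 0 with the 8 libraries of the site alone, 3 with the replicate block as a random effect, and 4 at 0.05. Between unwounded cheek and back, 2 calls became 1 with quantile normalization, median-ratio scaling, a pseudocount of 1, a minimum of 1 FPKM or no trend and robustness, and 0 without a filter. Between cheek and abdomen wounds, 2 calls became 0 with median-ratio scaling. The causes were not tested.

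Mouse numbers are shared between sites but do not pair animals (mean r of same-numbered mice -0.027 in unwounded skin and -0.051 in wounds). With a replicate block on that number, unwounded skin had 0 calls between back and abdomen and 0 between cheek and back, and wounds had 1 between cheek and abdomen.

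Without single mice, calls ranged from 1 to 1 in abdomen, 1 to 3 in back, 1 to 2 in cheek and 3 to 5 averaged over sites, and stayed at 0 for the difference between sites. In unwounded skin they ranged from 0 to 1 for back against abdomen, 0 to 0 for cheek against abdomen and 0 to 2 for cheek against back. In wounds the ranges were 0 to 1, 0 to 2 and 0 to 1. Members with an exact permutation p under 0.05 were 5 to 7 for the wound effect and 6 to 7 relative to Pdgfra. This test was run for the members alone, so no share of all genes stands beside these counts and nothing is concluded from them. For the wound effect they take in Dlk1, which the filter let in through the wounds, without abdomen mouse 1 or cheek mouse 4.

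Scaling shifted the balance of all genes between sites. Higher and lower calls in unwounded skin were 74 and 299 for back against abdomen (80 and 129 with median-ratio scaling), 186 and 172 for cheek against abdomen (104 and 174) and 78 and 69 for cheek against back (39 and 119). In wounds they were 71 and 107 (76 and 76), 1054 and 465 (664 and 737) and 267 and 84 (74 and 108). For the averaged wound effect they were 2754 and 2070, and 2229 and 3010 with quantile normalization. Unknown depth and values with 2 decimals limit what can be said of Dlk1.

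Under quantile normalization the values that changed sign were -0.096 for Dlk1 in cheek wounds, -0.019 for Cd34 between back and abdomen at rest, and -0.0151 (limma) and -0.0130 (exact test) for the averaged wound effect of Prdm1 and -0.0154 for that of Myf5, a gene of regenerating muscle. With a pseudocount of 0.1 they were 0.000331 for Pdgfra between unwounded cheek and abdomen and 0.0304 for Dlk1 relative to Pdgfra in both tests, and with a pseudocount of 1, 6.018e-05 for Twist2 between cheek and back wounds. With single mice left out, wound effects ran from -0.169 to 0.0848 for Pdgfra in abdomen, from -0.103 to 0.2002 for Dlk1 in cheek, from -0.00846 to 0.396 for Ly6a in abdomen and -0.116 to 0.147 in cheek, and from -0.00374 to 0.0963 for Prdm1 averaged (-0.00638 to 0.0772 in the exact test). For Twist2 they ran from -0.0967 to 0.0848 in abdomen, -0.2485 to 0.0169 in back, -0.133 to 0.157 in cheek and -0.0928 to 0.0189 averaged (-0.0891 to 0.0191 in the exact test), and for Fap from -0.0677 to 0.0783 averaged. Between unwounded back and abdomen, Dpp4 ran from -0.0551 to 0.297 and Cd34 from -0.0375 to 0.0797. Between unwounded cheek and abdomen, Pdgfra ran from -0.111 to 0.104, Pi16 from -0.244 to 0.292, Prdm1 from -0.214 to 0.101 and Twist2 from -0.0422 to 0.102. In wounds, back against abdomen gave -0.336 to 0.0875 for Ly6a and -0.198 to 0.0520 for Cd34, cheek against abdomen -0.00343 to 0.2275 for Twist2, and cheek against back -0.466 to 0.211 for Pi16 and -0.124 to 0.107 for Twist2.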
